A study of Mus musculus with 36 samples.

Results

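The clustered protocadherins lie on mouse chromosome 18 in the alpha, beta and gamma arrays, and their RNA was compared here among 6 inbred mouse strains. Members were taken by gene symbol, as every gene whose symbol begins with Pcdha, Pcdhb or Pcdhga, Pcdhgb or Pcdhgc followed by its number. Of 58 such genes in the current gene table (14 alpha, 22 beta and 22 gamma), 24 were matched by identifier to a row of the count tables, out of 37315 rows in all. These were the 22 beta genes, Pcdhb1 to Pcdhb22, 1 row under an alpha identifier (ENSMUSG00000007440, symbol Pcdha11) and 1 row under a gamma identifier (ENSMUSG00000023036, symbol Pcdhgc4). The other 34 genes, the C-type genes Pcdhac1, Pcdhac2, Pcdhgc3 and Pcdhgc5 among them, were not analysed here. The sources used here do not give the extent of the alpha and gamma identifiers in the authors' annotation, so both are called the alpha row and the gamma row and are read as no single isoform. All 24 rows passed the filter on low counts, as did 19702 rows of the whole table.

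Clustered protocadherins are cell-surface adhesion proteins of the cadherin superfamily that bind their own kind on a neighbouring cell. Each neuron switches on a small, partly random set of them through promoter choice at DNA looped by CTCF and cohesin to distant enhancers, and the combination helps a neuron tell its own branches from those of other cells. In the alpha and gamma arrays each variable exon is spliced to constant exons that all genes of the array share, whereas a beta gene carries its own coding sequence without a shared constant part.

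The study sequenced hippocampal RNA of 36 adult animals from the inbred strains PWD/Ph, DBA/2J, DBA/1J, C57BL/6J, A/J and 129S1/SvImJ, with 3 per sex and strain. Each library came from the whole hippocampus of 1 animal, and the replicates were separate animals. In PWD/Ph and DBA/2J both sexes were 62 days old. Males of 129S1/SvImJ, A/J and DBA/1J were 62 days and females 63 days old, and those of C57BL/6J 63 and 64 days, so that sex and age cannot be told apart in these 4 strains. PWD/Ph mice were housed singly and all others in groups, so strain and housing cannot be told apart for PWD/Ph. Males and females also received different spike-in RNA mixes, and no spike-in value was read.

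Total counts per library ran from 6493512 to 35232515, and the 3 shallowest libraries were all DBA/2J. Markers of hippocampal excitatory neurons were detected in every library, with a summed level from 3030 to 4053 CPM (each count scaled by the effective size of its library). Of the raphe serotonergic markers, Fev was at 0 in 28 libraries and Slc6a4 in 6, while Tph2 (0.342 to 2.28 CPM) and Slc17a8 (4.32 to 12.7) were at 0 in none. The summed level of choroid plexus markers varied most, from 48.8 to 3715 CPM. In whole tissue, fewer cells of a type and less RNA per cell cannot be told apart.

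The beta genes spanned chromosome 18, 37264938 to 37524479 (GRCm38, plus strand), between the alpha row (37005203 to 37187657) and the gamma row (37815079 to 37841873). The GENCODE M21 annotation gave 18 of the 22 beta genes a single exon. Their sequences resemble each other, which bears on how reads were assigned. Of the 50-base words in each beta transcript, 0% (Pcdhb1) to 12% (Pcdhb12) also occurred in another beta gene. For Pcdhb12, 64.2% of words occurred in some other annotated gene, against 60.1% for the alpha row and 41.6% for the gamma row. The annotations of Pcdhb21 and Pcdhb22 overlap, and their counts are uncertain for that reason. Reads were aligned to the genome of C57BL/6J, the reference strain, and the sources used here do not say how reads with several matches were counted. The part of sequence differences between strains in the values below was not tested.

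On the deposited FPKM scale, which divides by transcript length, the beta genes differed among themselves by over an order of magnitude. Over all 36 libraries Pcdhb9 (3.04 FPKM ± 0.851, SD) and Pcdhb17 (3.03 ± 0.706) stood highest, followed by Pcdhb20 (2.48 ± 0.332) and Pcdhb7 (2.39 ± 0.668). Pcdhb4 (0.787 ± 0.219), Pcdhb21 (0.670 ± 0.209) and Pcdhb1 (0.10 ± 0.0936) stood lowest. Neighbours in this order mostly lay within each other's spread. The order was not the same in every strain. Pcdhb9 led in A/J (4.55 FPKM ± 0.630, n = 6), C57BL/6J (3.13 ± 0.274), DBA/1J (2.84 ± 0.282) and DBA/2J (3.21 ± 0.178), with Pcdhb17 next and within 1 SD of it in each. In 129S1/SvImJ the leaders were Pcdhb17 (3.47 ± 0.406), Pcdhb7 (3.28 ± 0.417) and Pcdhb3 (2.97 ± 0.436). In PWD/Ph Pcdhb7 led (3.04 ± 0.201), ahead of Pcdhb20 (2.33 ± 0.394). Pcdhb1 was last in all 6 strains.

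**Figure D1:**
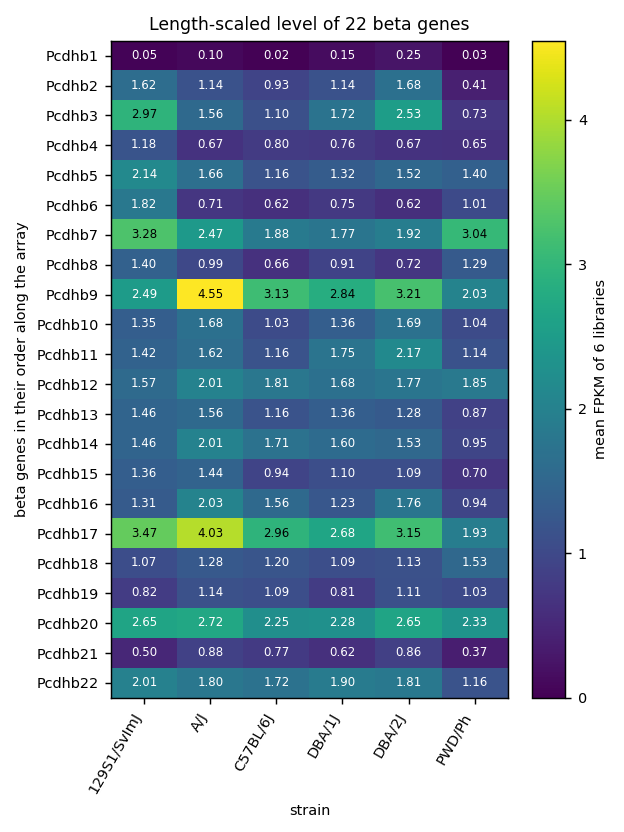
Mean deposited FPKM of 6 libraries (colour and printed value) for the 22 beta genes in array order (rows) and the 6 strains (columns). Pcdhb9 and Pcdhb17 are bright in most strains, and Pcdhb7 and Pcdhb3 stand out in 129S1/SvImJ.

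All 24 rows differed across the strains by edgeR's quasi-likelihood test (adjusted p under 0.05), but so did 92% of the 19702 genes tested, so that count says nothing particular to protocadherins. The comparisons below therefore set each strain against the mean of the other 5. Beside each count of members by edgeR on counts stands the share of all genes called. Counts of members under other settings are given without such a share. The 6 strain comparisons use the same libraries and are not independent. A level is in CPM, and a difference is a log2 fold change ± SE with edgeR's adjusted p.

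The strains differed in which beta genes were high, gene by gene along the array, and also in the summed beta level given further below. Among the 5 beta genes with the smallest p across strains, Pcdhb3 had the smallest (adjusted p = 1.27e-17). It ran from 13.2 to 17.9 CPM (median 15) in 129S1/SvImJ and from 12.4 to 19.5 (14.7) in DBA/2J. DBA/1J libraries held 8.76 to 10.4 (9.20), and it ran in A/J from 6.43 to 9.09 (8.13) and in C57BL/6J from 5.52 to 6.37 (5.93). PWD/Ph libraries held 4.05 to 4.90 (4.23). The ranges of 129S1/SvImJ and DBA/2J overlapped and lay wholly above those of the other 4 strains, and PWD/Ph lay below all 30 other libraries.

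Pcdhb9 was highest in A/J, with 16.1 to 21.8 CPM (median 18.7), and in DBA/2J, with 14.96 to 17.4 (15.9). C57BL/6J libraries held 12.5 to 15.1 (13.5) and those of DBA/1J 10.997 to 13.8 (12.2). It was lowest in 129S1/SvImJ, with 9.29 to 11.95 (10.5), and in PWD/Ph, with 9.21 to 11.5 (10.003). The ranges overlapped within each of these pairs of strains, and A/J overlapped only with DBA/2J.

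Pcdhb6 ran from 5.23 to 7.92 CPM (median 6.51) in 129S1/SvImJ and from 4.12 to 5.46 (4.31) in PWD/Ph. In A/J it ran from 2.19 to 3.51 (2.69), in C57BL/6J from 1.86 to 2.85 (2.43), in DBA/1J from 2.32 to 3.71 (2.76) and in DBA/2J from 2.56 to 3.54 (2.82). The latter 4 strains overlapped each other and lay below both 129S1/SvImJ and PWD/Ph.

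Pcdhb7 was likewise highest in PWD/Ph, with 16.3 to 19.4 CPM (median 17.1), and in 129S1/SvImJ, with 12.3 to 18.3 (16.1). A/J libraries held 8.44 to 14.2 (13.04), those of DBA/2J 9.51 to 12.4 (12.1), those of C57BL/6J 8.39 to 11.3 (9.57) and those of DBA/1J 8.09 to 10.3 (8.97). PWD/Ph overlapped only with 129S1/SvImJ.

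Pcdhb17 showed the reverse for PWD/Ph. It ran from 9.21 to 10.8 CPM (median 10.3) there, below every other library. A/J libraries held 16.4 to 19.1 (18.3), those of DBA/2J 15.96 to 18.2 (16.7) and those of 129S1/SvImJ 12.3 to 17.3 (16.01). In C57BL/6J it ran from 12.97 to 14.8 (14.1) and in DBA/1J from 11.3 to 14.8 (12.2).

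**Figure D2:**
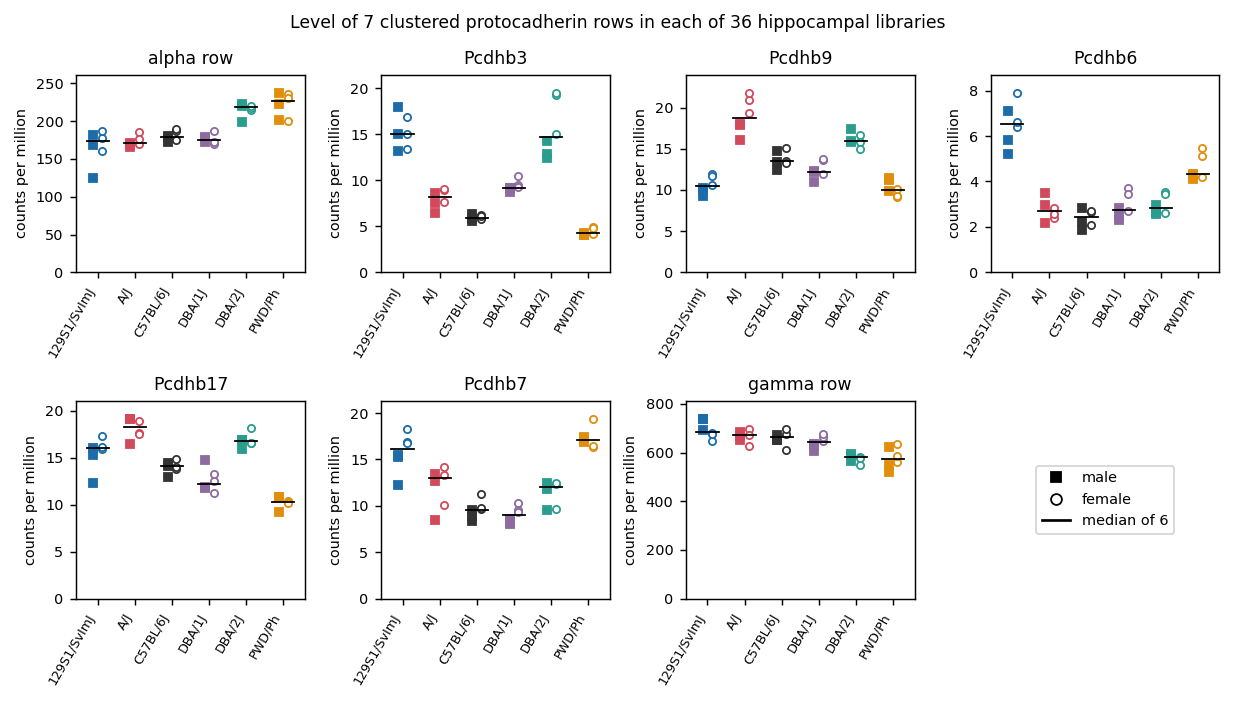
CPM of 7 rows in each of 36 libraries (y axis), by strain (x axis), with squares for males, open circles for females and a line at the median of 6. Pcdhb3 is high in 129S1/SvImJ and DBA/2J, Pcdhb6 in 129S1/SvImJ, and the alpha row in DBA/2J and PWD/Ph.

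In 129S1/SvImJ the beta genes at the alpha end of the array were higher together. The 7 neighbours Pcdhb2 to Pcdhb8 all rose, by 1.37-fold (Pcdhb7) to 2.14-fold (Pcdhb6), and each of these 7 calls held under all 9 alternative settings and without each of the 36 libraries in turn. For Pcdhb6 the log2 fold change was 1.099 ± 0.09 (adjusted p = 4.32e-12) and for Pcdhb3 0.96 ± 0.06 (7.34e-14). Further along the array the values fell on both sides of 0. Pcdhb9 (-0.40 ± 0.05), Pcdhb12 (-0.34 ± 0.07) and Pcdhb21 (-0.56 ± 0.10) were lower, and Pcdhb15 (0.29 ± 0.09) was higher. In all, 18 of 24 members were called, 10 higher and 8 lower, where 67.4% of all genes were called, 35.3% higher and 32.1% lower. Past 1.5-fold there were 4 higher members, Pcdhb2, Pcdhb3, Pcdhb4 and Pcdhb6, where 12.8% of all genes were called higher, and 0 lower members (11%).

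Of the 8 lower calls in 129S1/SvImJ, those of the alpha row, Pcdhb14, Pcdhb16, Pcdhb18 and Pcdhb19 turned to the other sign once each library's trend on GC content and transcript length was removed, and Pcdhb14 then passed as higher (log2 0.417). That correction gave 13 higher and 3 lower members, with a median of 0.0312 over all genes. The correction used the longest GENCODE M21 transcript of each gene, for Pcdhb14 8695 bases at 39.1% GC. The deposited counts and FPKM together imply 4970 bases for Pcdhb14. Such implied lengths rest on summed gene counts in place of mapped fragments and are rough. They also differed for Pcdhb16 (7620 against 5225 bases), Pcdhb18 (7330 against 5041) and Pcdhb19 (10400 against 7138). The implied length was the shorter one for Pcdhb14 and Pcdhb22 (4500 against 6609) and the longer one for all other members. The corrected values are uncertain for these reasons, those of Pcdhb14 among them. Male replicate 2 of this strain had the lowest summed beta level (141 CPM) and the lowest alpha row (125 CPM) of its 6 libraries, beside the highest choroid plexus (2422 CPM) and oligodendrocyte (6762 CPM) marker sums. In the strain as a whole the astrocyte sum was the lowest of the 6 (4231 CPM ± 517, SD). The part of these cell types was not tested. Without that library 17 members were called. Pcdhb6 stood at 1.15 and Pcdhb3 at 1.01 on the log2 scale, Pcdhb14 (adjusted p = 0.132) and Pcdhb16 (0.0685) lost their calls and Pcdhb22 gained one (0.0153). Without female replicate 1, Pcdhb14 (0.116) and Pcdhb16 (0.06) were likewise lost, and the call of Pcdhb14 held without only 23 of the 36 libraries. The call of Pcdhb17 (0.14 ± 0.05) was lost without male replicate 1 (adjusted p = 0.127).

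In C57BL/6J several genes at that end of the array were lower. Pcdhb3 (log2 -0.67 ± 0.07) and the neighbours Pcdhb5 (-0.52 ± 0.09), Pcdhb6 (-0.63 ± 0.11), Pcdhb7 (-0.42 ± 0.08) and Pcdhb8 (-0.68 ± 0.15) were lower than the mean of the other strains. Pcdhb10 (-0.46 ± 0.09) and Pcdhb11 (-0.49 ± 0.10) were lower as well, and all 7 calls held under every alternative and leave-out. Pcdhb4, between Pcdhb3 and Pcdhb5, was at 0.01 ± 0.10. In all, 9 members were called, 1 higher (Pcdhb21, 0.29 ± 0.09) and 8 lower, where 34.7% of all genes were called, 21.1% higher and 13.6% lower. Past 1.5-fold there were 3 lower members, Pcdhb3, Pcdhb6 and Pcdhb8, where 2.72% of all genes were, and 0 higher members (8.7%). The calls of Pcdhb21 and Pcdhb15 (-0.28 ± 0.10) were each lost without some single C57BL/6J libraries, such as male replicate 3 (adjusted p = 0.0577 and 0.0774). The median over the 22 beta genes was -0.196, beside 0.0167 over all genes. Oligodendrocyte markers were higher in this strain for 10 of 10 genes (median log2 0.49) and choroid plexus markers for 7 of 12 (1.15), and their part was not tested. C57BL/6J is the strain of the reference genome.

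In DBA/2J the beta genes were higher on both sides of a gap. Pcdhb2 rose 2.05-fold (log2 1.04 ± 0.14, adjusted p = 2.38e-07) and Pcdhb3 1.96-fold (0.97 ± 0.07, 8.45e-13). Pcdhb4 to Pcdhb8 were not called. Beyond them Pcdhb9 (0.33 ± 0.05), Pcdhb10 (0.58 ± 0.08), Pcdhb11 (0.78 ± 0.09), Pcdhb16 (0.55 ± 0.10) and Pcdhb21 (0.72 ± 0.10) were higher. In all, 16 members were called, 15 higher and 1 lower (the gamma row), where 49.5% of all genes were called, 25.1% higher and 24.4% lower. Past 1.5-fold there were, leaving aside Pcdhb1, 4 higher members (5.68% of all genes) and 0 lower ones (8.02%). The median over the 22 beta genes was 0.281, beside -0.0105 over all genes. It came to 0.187 beside 0.028 with the GC and length trend removed and to 0.103 beside -0.169 on log2 of FPKM plus 0.1. The summed excitatory neuron markers ran from 3598 to 4053 CPM in DBA/2J and up to 3846 in the other 5 strains. Gene by gene, 9 of these 20 markers were higher and 5 lower (median log2 0.0973). Of 11 interneuron markers 2 were higher and 8 lower (-0.243). The part of these cell types was not tested.

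Depth and scale moved that count in DBA/2J. Without its 3 shallow libraries 10 members were called, 9 higher and 1 lower, and log2(FPKM + 0.1) gave 8 higher and 4 lower. The median log2 fold change over all genes was -0.0349 and -0.169 in these settings. The calls that held in every setting and leave-out were those of Pcdhb1, Pcdhb2, Pcdhb3, Pcdhb9, Pcdhb10, Pcdhb11, Pcdhb16, Pcdhb21 and the gamma row. Pcdhb14 (0.20 ± 0.08) turned to -0.136 with the GC and length trend removed, a value uncertain for the length used, as given above. The calls of Pcdhb14 and Pcdhb13 (0.25 ± 0.10) held without only 18 and 14 of the 36 libraries.

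PWD/Ph, a strain derived from wild mice, had the widest range of beta fold changes, with alternating blocks of lower and higher genes. Its changes were also the largest over all genes. The median size of the log2 fold change was 0.519 over the 22 beta genes and 0.386 over all genes, each the largest of the 6 strains. Pcdhb2 was 2.82-fold lower (log2 -1.49 ± 0.17, adjusted p = 3.95e-09) and Pcdhb3 2.32-fold lower (-1.21 ± 0.08, 3.53e-14). Pcdhb6 (0.49 ± 0.10), Pcdhb7 (0.62 ± 0.07) and Pcdhb8 (0.76 ± 0.13) were higher. Pcdhb9 to Pcdhb11 and Pcdhb13 to Pcdhb17 were lower, from -0.23 ± 0.09 (Pcdhb10) to -0.62 ± 0.08 (Pcdhb14). Pcdhb18 (0.59 ± 0.07) was higher, and Pcdhb21 (-0.77 ± 0.11) and Pcdhb22 (-0.52 ± 0.08) were lower. In all, 20 members were called, 6 higher and 14 lower, where 70.5% of all genes were called, 34.4% higher and 36% lower. Of these calls 16 held under every alternative and leave-out. Pcdhb10 was lost without female replicate 3 (adjusted p = 0.102), as was Pcdhb11 (0.0896). Past 1.5-fold there were, leaving aside Pcdhb1, 3 higher (11.2% of all genes) and 4 lower members (18.7%).

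PWD/Ph was the only strain with a member whose 6 libraries lay outside all 30 others. Pcdhb2, Pcdhb3, Pcdhb14 and Pcdhb17 lay below, where 3.22% of all genes did, and Pcdhb18 lay above, where 4.34% did. In the other 5 strains 0 members lay outside, where the shares of all genes above and below were 2.71% and 1.54% in 129S1/SvImJ, 0.35% and 0.162% in A/J, 0.406% and 0.284% in C57BL/6J, 0.289% and 0.376% in DBA/1J and 0.36% and 0.406% in DBA/2J. Pcdhb2 ran from 0.962 to 2.64 CPM (median 1.70) in PWD/Ph, and the lowest of the 30 other libraries was at 2.69 in A/J. Pcdhb18 ran from 10.6 to 14.3 CPM (median 11.9), and the highest of the others was at 10.2 in DBA/2J. Pcdhb14 reached 5.70 CPM in PWD/Ph, and the lowest of the others was at 5.84 in 129S1/SvImJ. These 3 gaps were narrow. Several marker sums also stood apart in this strain. Striatum markers summed to 192 to 338 CPM against 141 to 172 in the other 5, and microglia markers to 208 to 216 against 238 or more. Oligodendrocyte (2900 CPM ± 547, SD) and meningeal sums (142 ± 32.9) were the lowest of the 6 strains by mean. The astrocyte (6786 ± 578), endothelial (423 ± 18.8) and thalamus sums (177 ± 21.3) were the highest. Single genes weigh heavily in such sums, as Slc1a2, an astrocyte marker, averaged 4140 CPM over all libraries. Gene by gene, 4 astrocyte markers were higher and 5 lower in PWD/Ph, and 3 endothelial and mural markers were higher and 3 lower. Thalamus markers were 4 higher and 1 lower, oligodendrocyte markers 1 and 8, and meningeal markers 0 and 4. Of all genes 34.4% were higher and 36% lower. The part of these cell types was not tested.

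In A/J and DBA/1J few members passed 1.5-fold. In A/J the neighbours Pcdhb14 to Pcdhb17 were higher, from 0.35 ± 0.09 (Pcdhb15) to 0.47 ± 0.09 (Pcdhb16) on the log2 scale, as were Pcdhb9 (0.61 ± 0.05, adjusted p = 5.84e-12) and Pcdhb21 (0.42 ± 0.09), while Pcdhb6 was lower (-0.40 ± 0.10). In all, 11 members were called there, 8 higher and 3 lower, where 33.2% of all genes were called, 18.9% higher and 14.4% lower. Past 1.5-fold, and leaving aside Pcdhb1, Pcdhb9 was higher (6.84% of all genes) and 0 members lower (3.71%). In DBA/1J 10 members were called, 1 higher and 9 lower, where 53.4% of all genes were called, 28.5% higher and 24.9% lower. Past 1.5-fold, and leaving aside Pcdhb1, 0 members were higher (8.86% of all genes) and 0 lower (3.22%). Of these 10, the lower level of Pcdhb7 (-0.52 ± 0.08) and the higher level of Pcdhb1 held under every alternative and leave-out. Pcdhb16 to Pcdhb19 were lower in DBA/1J, by 0.23 (Pcdhb17) to 0.40 (Pcdhb19), and each of these 4 calls was lost with the GC and length trend removed. That correction gave 5 higher and 3 lower members, and log2 of FPKM plus 0.1 gave 2 higher and 3 lower. The median over all genes in DBA/1J was -0.0358 and 0.0782 in these settings.

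**Figure D3:**
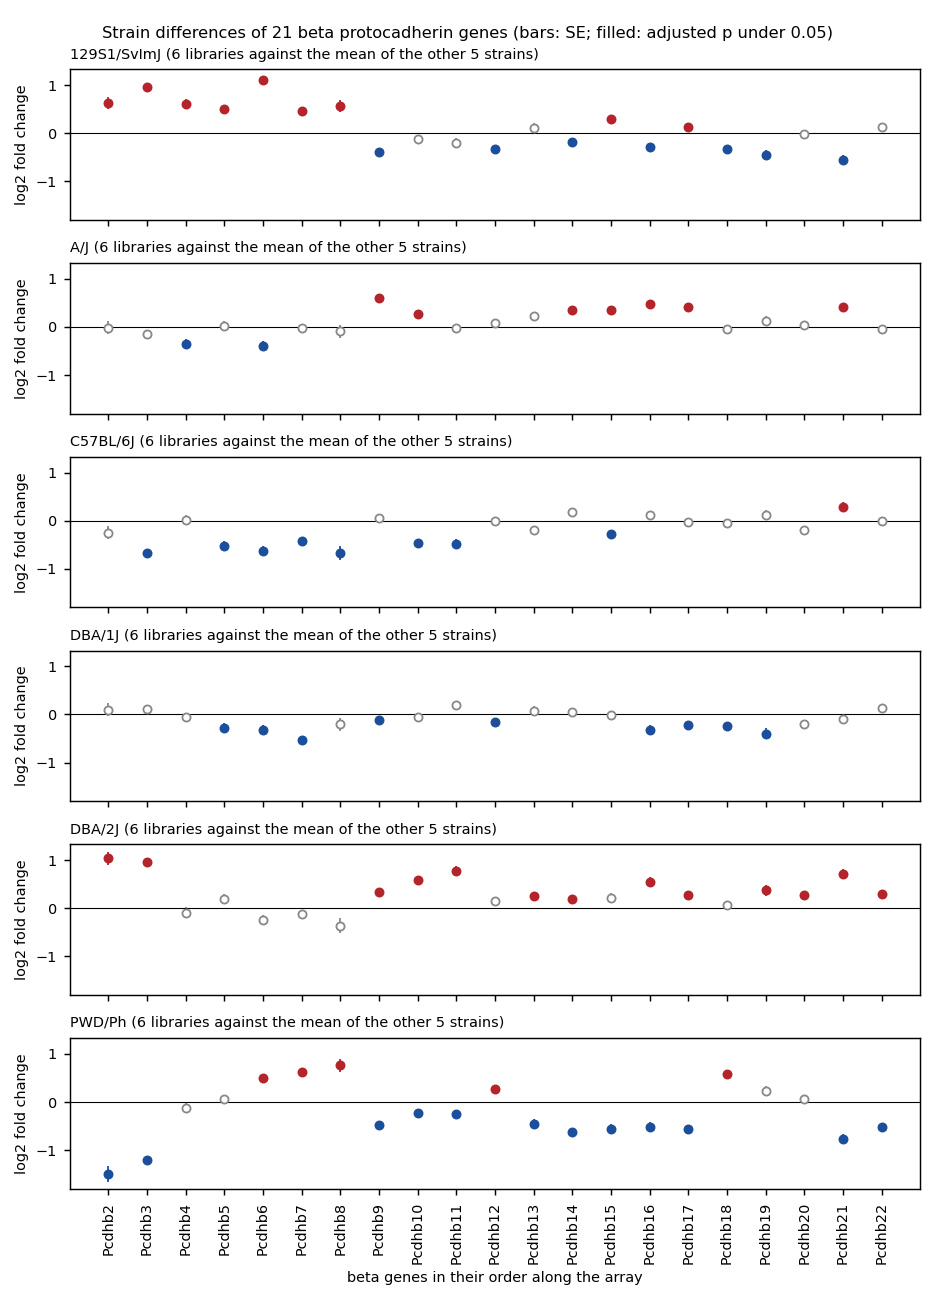
Log2 fold change (y axis, bars SE) of 21 beta genes in array order (x axis) in each strain against the mean of the other 5, red for higher and blue for lower at an adjusted p under 0.05, open where not called. The 7 genes Pcdhb2 to Pcdhb8 are all red in 129S1/SvImJ, and PWD/Ph alternates between blue and red blocks. Pcdhb1 is left out for its few counts.

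Pcdhb1, the beta gene nearest the alpha array, was close to the limit of detection. It had 6 to 22 counts per library in DBA/2J, 4 to 20 in DBA/1J, 2 to 12 in A/J, 0 to 8 in 129S1/SvImJ and 0 to 2 in both C57BL/6J and PWD/Ph. It passed the test as higher in DBA/2J, DBA/1J and A/J and as lower in PWD/Ph. No fold is given, since the groups compared include libraries at 0. The call in A/J was lost on the FPKM scale and without A/J male replicate 3 (adjusted p = 0.212).

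DBA/2J and DBA/1J, inbred strains of common origin, were compared directly. Of the 24 members 17 were called, 16 higher and 1 lower in DBA/2J, where 54.9% of all genes were called, 25.4% higher and 29.5% lower. The largest differences were in Pcdhb2 (log2 0.78 ± 0.18, adjusted p = 0.000392), Pcdhb16 (0.73 ± 0.13, 2.85e-05), Pcdhb3 (0.72 ± 0.09, 1.01e-07) and Pcdhb21 (0.68 ± 0.13, 4.72e-05), leaving aside Pcdhb1. Past 1.5-fold there were, again without Pcdhb1, 5 higher members (6.73% of all genes) and 0 lower ones (12.4%). Pcdhb4, Pcdhb6 and Pcdhb8 were not called, at -0.02 ± 0.14, 0.06 ± 0.14 and -0.14 ± 0.19. The 6 libraries of DBA/2J lay above all 6 of DBA/1J for the alpha row and 8 beta genes, Pcdhb2, Pcdhb3, Pcdhb9, Pcdhb10, Pcdhb16, Pcdhb17, Pcdhb19 and Pcdhb21, where 15.5% of all genes did. The gamma row lay below, where 14.8% did.

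Pcdhb16 shows the size of this difference, with 12.7 to 17.2 CPM (median 14.8) in DBA/2J and 8.39 to 10.1 (9.04) in DBA/1J. Pcdhb21 had 5.04 to 7.62 (6.78) in DBA/2J against 3.66 to 5.03 (3.95) in the other strain. The 2 ranges of Pcdhb21 nearly touched, and those of Pcdhb16 were well apart. Among the 17 calls, 8 held under every alternative and leave-out, all higher, namely Pcdhb1, Pcdhb2, Pcdhb3, Pcdhb9, Pcdhb10, Pcdhb16, Pcdhb17 and Pcdhb21. On the FPKM scale 11 members were called, 10 higher and 1 lower. The median over all genes was -0.209 on log2 of FPKM plus 0.1. The call of Pcdhb7 (0.34 ± 0.11) was lost without DBA/2J male replicate 3 (adjusted p = 0.0743), and Pcdhb18 (0.25 ± 0.10) turned to -0.102 with the GC and length trend removed.

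**Figure D4:**
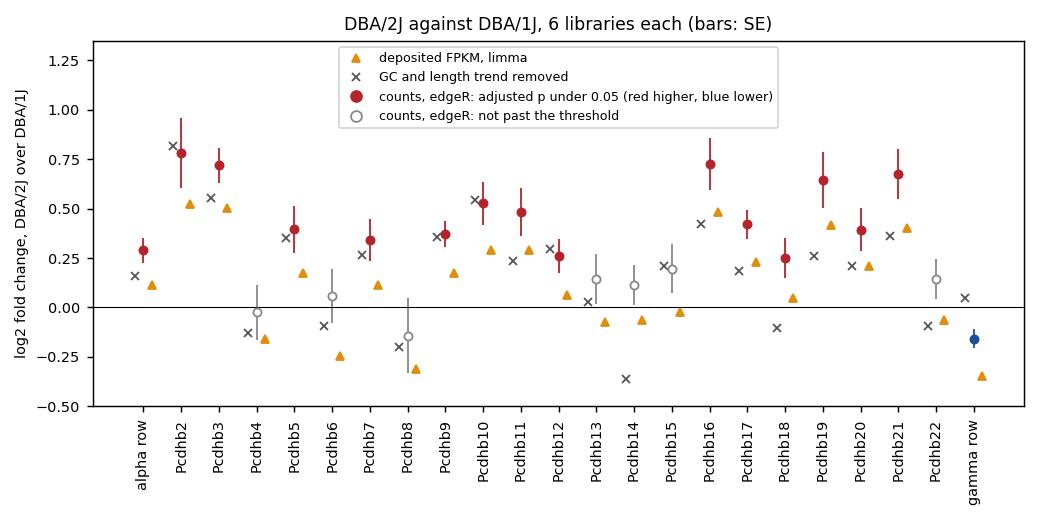
Log2 fold change of DBA/2J over DBA/1J (y axis) for the alpha row, 21 beta genes in array order and the gamma row (x axis), from counts by edgeR (circles, bars SE), from deposited FPKM (triangles) and with the GC and length trend removed (crosses). The FPKM values lie below those from counts throughout, and Pcdhb2, Pcdhb3 and Pcdhb16 are well above 0 on all 3 scales.

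The alpha and gamma rows moved less than most beta genes. By edgeR on counts they moved in opposite directions in DBA/2J, PWD/Ph and 129S1/SvImJ. Both calls did not hold together in every setting in any of these strains. The alpha row ran from 199 to 223 CPM (median 219) in DBA/2J and from 201 to 238 (227) in PWD/Ph. In 129S1/SvImJ it ran from 125 to 187 (173) and in A/J from 165 to 186 (171). C57BL/6J libraries held 172 to 189.96 (179) and those of DBA/1J 170.01 to 188 (175). The ranges of DBA/2J and PWD/Ph overlapped and lay above the other 4 strains, which overlapped each other. The log2 fold change was 0.24 ± 0.05 (adjusted p = 0.000183) in DBA/2J and 0.29 ± 0.05 (5.18e-06) in PWD/Ph. The former call was lost without the 3 shallow DBA/2J libraries (0.192, adjusted p = 0.0518) and on the FPKM scale, and the latter held in every setting. In 129S1/SvImJ the alpha row was called lower (-0.205). That call was lost on the FPKM scale and with the GC and length trend removed (0.00155). In A/J the alpha row was called lower too (-0.143), a call lost on the FPKM scale.

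The gamma row ran from 549.5 to 594 CPM (median 579.95) in DBA/2J and from 521 to 634 (574) in PWD/Ph. In 129S1/SvImJ it ran from 647 to 739 (686) and in A/J from 628 to 699 (671). C57BL/6J libraries held 609.96 to 697 (663) and those of DBA/1J 607 to 676 (642). DBA/2J lay below the latter 4 strains, and PWD/Ph overlapped with A/J, C57BL/6J and DBA/1J. The log2 fold change was -0.17 ± 0.04 (adjusted p = 0.00042) in DBA/2J, -0.16 ± 0.04 (0.000341) in PWD/Ph and 0.15 ± 0.04 (0.00044) in 129S1/SvImJ. With the GC and length trend removed, the value in PWD/Ph turned to 0.0616 and the one in 129S1/SvImJ was no longer called, while the call in DBA/2J held. The alpha row divided by the gamma row gave 0.374 ± 0.0211 (SD, n = 6) in DBA/2J and 0.386 ± 0.0555 in PWD/Ph, against 0.241 to 0.274 in the other 4 strains. This ratio of counts is not scaled by length.

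The beta genes summed followed neither row. Their summed level was highest in DBA/2J (204 CPM ± 9.68, SD, n = 6), followed by A/J (184 ± 13.4) and 129S1/SvImJ (177 ± 20.1). It was lower and alike in C57BL/6J (153 ± 6.78), DBA/1J (154 ± 11.1) and PWD/Ph (154 ± 6.86). The means of these 3 strains lay within each other's SD. Within the sum, Pcdhb7 took 11.2% ± 0.856 in PWD/Ph and 5.55% ± 0.502 in DBA/2J. Pcdhb3 took 8.67% ± 1.20 in 129S1/SvImJ and 2.85% ± 0.243 in PWD/Ph, and Pcdhb9 took 10.3% ± 0.848 in A/J and 6.03% ± 0.363 in 129S1/SvImJ.

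**Figure D5:**
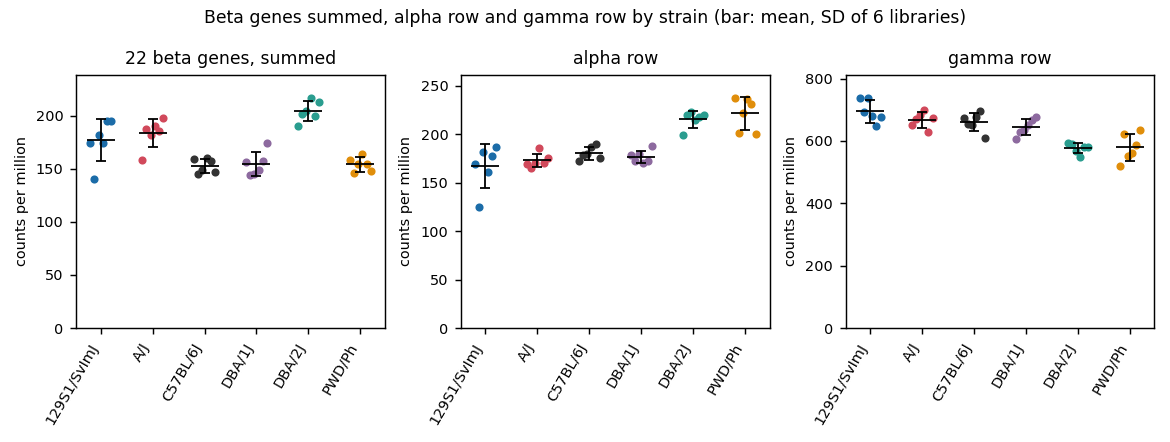
Summed CPM of the 22 beta genes, CPM of the alpha row and CPM of the gamma row (y axes) in each library by strain (x axis), with the mean and SD of 6. The beta sum is highest in DBA/2J, and DBA/2J and PWD/Ph have the highest alpha row and the lowest gamma row.

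Few members passed the test between the sexes. Averaged over strains, 47 genes passed edgeR's test (0.239% of all, 0.112% higher and 0.127% lower in females), of which 1 was a member, Pcdhb12. It was 1.16-fold higher in females (log2 0.21 ± 0.05, adjusted p = 0.0493), and the female mean was the higher one in 6 of 6 strains. In the 18 females it ran from 6.58 to 11.1 CPM (median 8.46) and in the 18 males from 5.76 to 8.83 (7.70), so the sexes overlapped widely. In A/J the females had 8.88 to 10.1 CPM and the males 6.98 to 7.81, without overlap, and in PWD/Ph 9.76 to 11.1 and 8.11 to 8.76. The sexes of 129S1/SvImJ did not overlap either, at 6.58 to 7.40 and 5.76 to 6.43, and those of the remaining strains did. With 3 libraries per sex such a split can arise by chance, and the share of all genes showing it was not counted. The call held without each of only 9 of the 36 libraries, held in only 1 of 6 strain leave-outs (without 129S1/SvImJ), and was lost with DESeq2's size factors, with no low-count filter and on log2 of FPKM plus 0.1. Most of its sequence is shared with another annotated gene, as given above.

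Within strains, 0 of 144 member tests passed by edgeR, and 10 had an unadjusted p under 0.05, all of them higher in females. A mean of 12.5% of all genes had such a p in either direction. DESeq2's test gave 0 calls as well, and limma on log2 of FPKM plus 1 gave 2, Pcdhb9 and Pcdhb12 in A/J. By edgeR the share of all genes called was 5.32% in A/J, 0.102% in 129S1/SvImJ and 0.279% in C57BL/6J. It was 0.0609% in DBA/1J, 0.0508% in DBA/2J and 0.122% in PWD/Ph. For the interaction of sex and strain edgeR called 0 members, where 1.64% of all genes were called, with 1 member at an unadjusted p under 0.05 beside 21.1% of all genes, and DESeq2 and limma called 0. Averaged over strains, 8 of 24 members had an unadjusted p under 0.05, all higher in females. Of all genes 14.4% had such a p in either direction, and their share by direction was not counted. The log2 values of 21 of 22 beta genes were above 0, with a median of 0.089 beside -0.0012 over all genes.

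Other genes of the pathway were taken from 5 lists. Of 23 regulators that act on the clusters' chromatin (CTCF, cohesin and its loaders, DNA and histone methylation), 3 were higher and 15 lower in 129S1/SvImJ, with a median log2 of -0.34, where 35.3% of all genes were higher and 32.1% lower. In DBA/2J 17 were higher and 1 lower (median 0.235), where 25.1% of all genes were higher and 24.4% lower, and without the 3 shallow libraries 9 and 0. In PWD/Ph 15 were higher and 3 lower (0.285), where 34.4% of all genes were higher and 36% lower. In DBA/1J edgeR on counts gave 3 higher and 11 lower (-0.114), where 28.5% of all genes were higher and 24.9% lower. Removing the GC and length trend left 5 higher and 7 lower in 129S1/SvImJ, 8 and 1 in DBA/2J and 4 and 3 in PWD/Ph, and on log2 of FPKM plus 0.1 the split turned to 3 higher and 4 lower in DBA/2J and to 6 and 7 in PWD/Ph, and was 4 and 12 in 129S1/SvImJ. The 4 named genes of each list made 78 calls over the strains, of which 33 held under every alternative and leave-out, and the genes below are given from those 33. Their size did not hold as their calls did. With other settings the value of Nipbl in 129S1/SvImJ shrank to as little as -0.294, that of Adam10 to -0.245, that of Abi2 to -0.122, and in PWD/Ph that of Pds5b to 0.181 and that of Abi2 to 0.391.

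Nipbl, which loads cohesin onto DNA, ran from 38.7 to 59.4 CPM (median 42.2) in 129S1/SvImJ (log2 -0.80 ± 0.06, adjusted p = 2.88e-12). Adam10, the protease that sheds protocadherin ectodomains, was lower there too (-0.60 ± 0.06). Pds5b, a cohesin regulator, was higher in PWD/Ph (0.58 ± 0.05) and lower in DBA/1J (-0.37 ± 0.06). Abi2, a subunit of the actin-regulating WAVE complex that binds several protocadherins, was highest in PWD/Ph with 349 to 505 CPM (0.70 ± 0.05) and lowest in 129S1/SvImJ with 172 to 256 (-0.51 ± 0.06). By edgeR on counts, 5 of the 9 WAVE complex genes were higher and 2 lower in PWD/Ph. There 34.4% of all genes were higher and 36% lower by the same test. The split turned to 2 and 4 on log2 of FPKM plus 0.1 and came to 4 and 0 with the GC and length trend removed. The median over all genes in PWD/Ph also moved, from -0.0237 to -0.181 and 0.0436. In DBA/1J 0 were higher and 5 lower, where 28.5% of all genes were higher and 24.9% lower. These counts became 1 and 2, and 0 and 7, in the same 2 settings. Of 15 signalling and processing partners, 7 were higher and 4 lower in PWD/Ph, which turned to 2 and 7 on the FPKM scale and came to 6 and 2 with the trend removed. In 129S1/SvImJ 6 were higher and 5 lower, where 35.3% of all genes were higher and 32.1% lower by edgeR on counts. The split became 8 and 3, and 5 and 2, in those settings.

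Related adhesion genes outside the clusters were counted in 129S1/SvImJ, where 35.3% of all genes were higher and 32.1% lower. Of 12 non-clustered protocadherins 1 was higher and 8 were lower there, with a median log2 of -0.405. This came to 2 and 5 with the GC and length trend removed and to 3 and 7 on log2 of FPKM plus 0.1. By edgeR on counts the split was the other way in PWD/Ph, 7 higher and 2 lower, and in DBA/1J, 5 and 2. Of all genes 34.4% were higher and 36% lower in PWD/Ph, and 28.5% and 24.9% in DBA/1J. These splits are not given under other settings. In PWD/Ph the higher calls of Pcdh17 (0.134) and Pcdh9 (0.222) were lost on the FPKM scale and with the trend removed. Their values fell as far as -0.161 and -0.0984, while the call of Pcdh11x held. Pcdh17 (-0.78 ± 0.06) and Pcdh19 (-0.69 ± 0.06), both non-clustered protocadherins of neurons, were lower in 129S1/SvImJ, and Pcdh11x was higher in PWD/Ph (0.99 ± 0.10). With other settings these values shrank to as little as -0.344, -0.348 and 0.364. Of 16 classical cadherins 2 were higher and 8 lower in 129S1/SvImJ, which turned to 5 and 4 with the trend removed and came to 3 and 3 on the FPKM scale. Cdh24 was higher in DBA/2J, with 16.1 to 21.4 CPM (1.44 ± 0.11), and lower in PWD/Ph, with 1.98 to 5.38 (-1.17 ± 0.14), which shrank to as little as 0.981 and -0.454.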

How the data were processed

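RNA sequencing of 36 hippocampal libraries was analysed, 3 for each of 12 groups of strain and sex. Per the file headers, each of 6 deposited tables holds whole-number counts and FPKM values per Ensembl gene for 6 libraries. The counts had not been scaled between libraries, and the deposited FPKM values give fragments by transcript length and by mapped fragments (12 rows have none). Whether the authors also scaled FPKM between libraries is not stated. The build was GRCm38 (mm10), and Cufflinks 2.1.1, DESeq2 1.8.1, SAMtools, TopHat2 2.0.13 and Trimmomatic 0.32 are named, per the submitters' processing notes. The sources used here do not give the counter, its strand setting, its treatment of reads with several matches or the annotation release.

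Counts were filtered (edgeR 4.0.16, filterByExpr over the 12 groups, minimum count 10 and minimum total 15, 19702 genes kept), scaled by TMM and fitted in 1 model with a mean per group (24 residual degrees of freedom, coefficient of variation 11.5%). Quasi-likelihood F tests were adjusted over all genes tested by Benjamini-Hochberg, with a threshold of 0.05. The script was tested on simulated counts. SE was taken as the size of the log2 fold change over the root of F. CPM uses the TMM library sizes. Total counts had a median of 21144604. The lowest count of a member in 1 library was 0 for Pcdhb1, 14 for Pcdhb2, 19 for both Pcdhb6 and Pcdhb8, 21 for Pcdhb4 and 22 for Pcdhb21, so counting error is sizeable for these in the shallow libraries. Alternatives used limma 3.58.1 on log2(FPKM + 0.1) and log2(FPKM + 1), DESeq2 1.42.0 (its size factors or its test), other filters, a replicate block, a loess trend (span 0.5) on GC content and length, and leaving out libraries. Coordinates and exons are those of GENCODE M21 on GRCm38, 1-based.

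Members and lists were chosen with earlier results of these data known. Values per strain are given for up to 5 rows of each array with the smallest p across strains. Other called members are named or only counted, so a member not named for a strain may still have been called there. Up to 4 genes of each pathway list with the smallest p were picked, not all of which are reported here.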

Additional observations from a re-analysis of the deposited data

Results flagged for a closer look

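In each strain, the highest and lowest of 6 libraries were compared with the rest for the 7 rows given in every strain, 42 groups in all, of which chance alone would mark about 1 in 20. In 2 of them a single library stood apart. The alpha row was 198.83 CPM in DBA/2J male replicate 1, where the next library was at 214.81, a gap of 0.663 of the group's range. Pcdhb7 was 19.382 CPM in PWD/Ph female replicate 2, where the next was at 17.377, a gap of 0.654 of the range. For the interaction of sex and strain edgeR's quasi-likelihood test called 0 members, with 1 at an unadjusted p under 0.05, and DESeq2 and limma called 0.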

How the results depend on the processing

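Over the 102 member calls reported, 60 held under all 9 alternatives and without each of 36 libraries. Kept were 99 with DESeq2 size factors, 91 with no low-count filter, 100 with 1 CPM in 3 libraries, 100 by DESeq2's test, 91 without the 3 shallow DBA/2J libraries, 74 and 78 by limma on log2(FPKM + 0.1) and log2(FPKM + 1), and 76 with the GC and length trend removed, where 9 reversed. The reversed values were 0.00155 for Pcdha11 (the alpha row), 0.417 for Pcdhb14, 0.0508 for Pcdhb16, 0.0597 for Pcdhb18 and 0.0275 for Pcdhb19 in 129S1/SvImJ, -0.136 for Pcdhb14 in DBA/2J and 0.0616 for Pcdhgc4 (the gamma row) in PWD/Ph. For DBA/2J against DBA/1J they were -0.102 for Pcdhb18 and 0.0467 for Pcdhgc4. Of these only Pcdhb14 in 129S1/SvImJ passed the threshold, and the cause was not tested. The transcript length used for Pcdhb14 differs from the one its counts and FPKM imply, so its corrected values are uncertain. Lengths also differed for other members, as given above. FPKM moved the median over all genes to between -0.209 (DBA/2J against DBA/1J) and 0.118 (A/J).

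Counts of members called changed by over 1.5 times in these cases. DBA/1J had 5 (2 higher, 3 lower) on log2(FPKM + 0.1), DBA/2J had 10 without its shallow libraries, where fewer samples were tested, and DBA/2J against DBA/1J had 11 on both FPKM scales. The averaged sex effect had 0 with DESeq2 size factors, no filter and log2(FPKM + 0.1), 2 by DESeq2's test, 3 without 129S1/SvImJ, and 0 without each of A/J, C57BL/6J, DBA/1J and DBA/2J. Without PWD/Ph Pcdhb12 was lost too (adjusted p = 0.0651), so its call held in 1 of 6 strain leave-outs. Within strains, 2 sex calls arose on log2(FPKM + 1) and 2 with the trend removed. The higher and lower split of A/J became 10 and 1 and that of 129S1/SvImJ 11 and 6 on FPKM, and that of C57BL/6J 0 and 11 with the trend removed.

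Leaving out 1 library at a time gave 23 to 24 members across strains, 16 to 19 in 129S1/SvImJ, 10 to 12 in A/J, 7 to 10 in C57BL/6J, 6 to 12 in DBA/1J, 14 to 19 in DBA/2J, 19 to 21 in PWD/Ph, 15 to 17 for DBA/2J against DBA/1J, 0 to 2 between sexes, and 0 within strains and for the interaction. No called value reversed, and 176 of 3672 lost the call. In DBA/1J, Pcdhb9 kept its call without 9 libraries and Pcdhb12 without 10. Of 30 shares of the beta sum, 18 moved by over 1 SD with FPKM in place of counts. Same-numbered libraries of the sexes showed no common direction (correlations -0.453 to 0.426, over 0.1 in 3 of 18 pairs). With 3 libraries a group this cannot show whether the numbers stand for a shared batch. With the replicate block 101 of 102 calls were kept. The named genes of the pathway lists were put through the same settings, a step added after the data had been seen. The 34 members without a row and the depth of 3 DBA/2J libraries limit what is given here.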
